A study of Mus musculus with 2 samples.

Results

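The miR-26 family of the mouse is made from 3 hairpin genes, Mir26a-1, Mir26a-2 and Mir26b, and their levels are described here in aged hippocampal tissue. The genes were chosen by name from the GENCODE M21 annotation, by a rule that uses none of their values, although earlier results of these data were known. All 3 were among the 2202 miRNA genes of the deposited counts. The small RNA came from female B6CASTF1/J mice aged 18 to 20 months, from tissue that the labels call a layer of hippocampus, and was limited to 30 nt. B6CASTF1/J animals are the offspring of a cross between the B6 and the wild-derived CAST strains. Both libraries, biological replicates 2 and 1 in the labels, belong to 1 group. Their tissue records differ in animal number and share 1 donor record, so the spread between them may be partly technical. The design holds no second condition, age or sex, and with 2 libraries the data give levels, the order of the genes and the spread between libraries, but no test of a condition.

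Each miR-26 gene lies in an intron of a gene for a small phosphatase of the carboxy-terminal domain of RNA polymerase II. These phosphatases, Ctdsp1, Ctdsp2 and Ctdspl, are known to work with the repressor REST, which silences neuronal genes in cells that are not neurons. In zebrafish, miR-26b has been described to act on the transcript of ctdsp2 during neurogenesis. A hairpin is cut into a 5p and a 3p mature arm, and bases 2 to 8 of an arm, its seed, guide the pairing with messenger RNAs.

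The mature arms show why the genes form a family and where they can be told apart. The sequences are from RefSeq (GRCm38.p6), which held all 3 genes, and the seed is in capitals.
miR-26a-5p: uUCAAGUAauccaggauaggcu
miR-26b-5p: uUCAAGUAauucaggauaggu
miR-26a-1-3p: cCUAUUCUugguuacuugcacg
miR-26a-2-3p: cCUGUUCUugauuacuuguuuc
miR-26b-3p: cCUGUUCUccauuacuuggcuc
Mir26a-1 and Mir26a-2 carry the same 5p arm of 22 bases. Over the 21 bases that miR-26b-5p spans, it differs from miR-26a-5p by C11U and C21U, counted from the 5′ end with the miR-26a base first. The 5p seed UCAAGUA is shared by all 3 genes, and among 1738 mature entries in the table no other gene has it. The 3p arms are less alike: miR-26a-1-3p differs from miR-26a-2-3p at 6 of 22 bases (A4G, G11A, C19U, A20U, C21U and G22C) and from miR-26b-3p at 8. Because of A4G, the 3p seed of Mir26a-1 is CUAUUCU, found in no other mature entry. Mir26a-2 and Mir26b have the 3p seed CUGUUCU, which Mir6932 and Mir7039 also carry.

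The whole hairpins show how far the identity of the copies extends beyond the mature arm. The mature arms are in capitals, and each hairpin is on the plus strand, as is its host gene.
Mir26a-1: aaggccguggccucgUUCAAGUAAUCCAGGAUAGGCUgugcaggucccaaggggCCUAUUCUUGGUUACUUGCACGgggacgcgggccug
Mir26a-2: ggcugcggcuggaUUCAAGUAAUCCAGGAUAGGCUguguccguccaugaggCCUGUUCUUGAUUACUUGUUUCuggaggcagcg
Mir26b: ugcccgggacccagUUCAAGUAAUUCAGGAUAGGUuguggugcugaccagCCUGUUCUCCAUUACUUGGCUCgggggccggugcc
The longest stretch common to Mir26a-1 and Mir26a-2 is 25 bases, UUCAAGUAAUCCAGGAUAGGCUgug, which is the 5p arm (capitals) and the first 3 bases of the loop. The longest stretch shared with Mir26b is 11 bases for Mir26a-1 and 10 bases for Mir26a-2. Of the 18-base windows inside the 5p arm, 5 of 5 in each Mir26a copy also occur in the other copy, and 0 of 4 in Mir26b occur in another annotated hairpin. In the 3p arms, 0 of 5 windows occur in another annotated hairpin, for each of the 3 genes. Over the whole hairpins, 6 of 71 windows of 20 bases in Mir26a-1 and 6 of 65 in Mir26a-2 are shared, each with the other copy alone, and 0 of 66 in Mir26b. Among all 2202 hairpins, 1133 (51.5%) share at least 1 such window with another. Matches elsewhere in the genome were not searched.

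**Figure D1:**
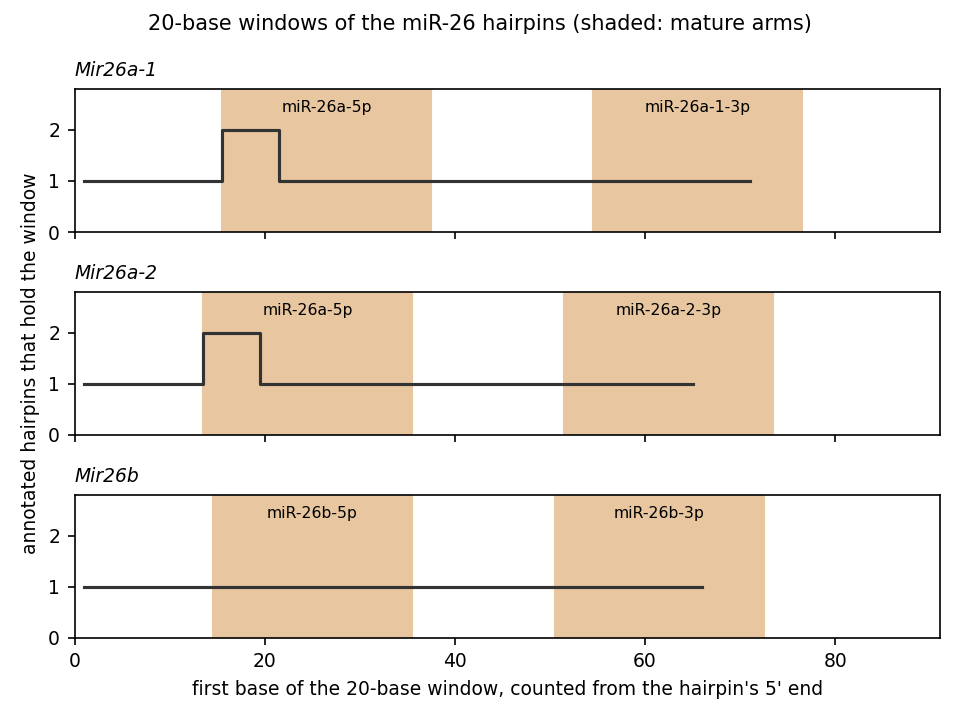
For each miR-26 hairpin, the number of annotated miRNA hairpins that hold the 20-base window (vertical axis) is plotted against the window's first base, counted from the hairpin's 5′ end, with the mature arms shaded. The 6 windows of each Mir26a copy that reach 2 hairpins begin at the first bases of the 5p arm, and the line of Mir26b stays at 1.

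These stretches bear on the counts, because reads with more than 1 possible place are given in the files only as 1 total per library. That total was 5818583 reads in replicate 2 and 2705225 reads in replicate 1, and how many of them were miR-26a-5p cannot be read from the files. A full-length miR-26a-5p read fits both copies, so the levels of Mir26a-1 and Mir26a-2 are uncertain and can be too low. The files count hairpins, so the arms behind a count were not told apart either. Adapter ligation can favour some sequences over others, which was not measured, so ratios between genes are ratios of counted reads, not of molecules.

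In position, the genes differ in how close they lie to the exons of their hosts (mm10, GENCODE M21). Mir26a-1 (ENSMUSG00000065513.1, chr9:119031796-119031885) lies in intron 5 of 7 of the longest Ctdspl transcript, an intron of 3283 bases, 1543 bases after the upstream exon and 1650 bases before the next one. Mir26b (ENSMUSG00000065468.1, chr1:74394310-74394394) lies in intron 4 of 6 of the longest Ctdsp1 transcript, which spans only 564 bases, with 234 bases on one side and 245 on the other. Mir26a-2 (ENSMUSG00000065430.1, chr10:126995530-126995613) lies in intron 5 of 7 of the longest Ctdsp2 transcript, an intron of 1946 bases, and 241 bases before the next exon. Its placement depends on the transcript: 2 shorter annotated Ctdsp2 transcripts begin at base 126995613, the last base of the hairpin, and so overlap it by 1 base. The nearest other miRNA gene is 2826 bases away for Mir26a-2 (Mir546), 187689 bases for Mir26b and 1032365 bases for Mir26a-1. The messenger RNAs of the host genes were not measured.

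The counts rested on 4521208 sense-strand reads in miRNA genes in replicate 2 and 2255838 in replicate 1. Levels are in CPM, sense counts scaled to a library sum of 1000000, and intervals are exact 95% Poisson intervals for counting error only, since PCR reads are not independent molecules. A count of 0 is given no such interval but a limit of 3 counts, which is 0.664 CPM in replicate 2 and 1.33 CPM in replicate 1. Unmapped reads made up 11.2% of all reads in replicate 2 and 29.0% in replicate 1, and multimapping reads 47.9% and 36.2%. Of the 10 neuron markers, 8 averaged at least 1 CPM, and the list summed to 81999 CPM in replicate 2 and 106774 CPM in replicate 1, led by Mir127 and Mir132. Mir124a, widely used as a marker of neurons, has 3 copies, which held between 0 and 13 counts each per library. Reads that fit more than 1 copy are left out of these counts, so they can be too low and do not show absence. The summed CPM of replicates 2 and 1 were 5395 and 6829 for oligodendrocyte, 3358 and 4808 for microglia and leukocyte, 38353 and 29696 for vascular, 136 and 138 for erythroid, 1476 and 3307 for choroid plexus and ependyma, and 380.2 and 647 for other-organ markers. Mir126b and Mir145b of the vascular list, Mir449b of the choroid list, and Mir1a-1, Mir1a-2, Mir133a-1 and Mir133a-2 of the other-organ list were at 0 in both libraries. The Mir1a and Mir133a genes are copies like those of Mir124a, so a 0 there does not show absence either.

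Among the reads counted at 1 place, Mir26b was one of the highest miRNA genes in both libraries. Genes with identical copies can rank too low by these counts, while Mir26b shares no 20-base window with another annotated hairpin. Replicate 2 gave 55250 counts, which is 12220.2 CPM (95% interval 12119 to 12323), and replicate 1 gave 22905 counts, which is 10154 CPM (10023 to 10286). Its mean was 11187 ± 1461 CPM (SD, n = 2), and it held rank 19 of 2202 in replicate 2 and again in replicate 1. Next in the order of means was Mir137, a neuronal miRNA, with 11969 CPM in replicate 2 and 10105 CPM in replicate 1. The means of these neighbours, 11187 and 11037 CPM, differed by less than either SD between libraries, although Mir26b was the higher of them within each library. The counting interval of Mir137 lay below that of Mir26b in replicate 2 (11869 to 12070 CPM) and overlapped it in replicate 1 (9974 to 10237 CPM). Mir128-1 averaged 12708 ± 3213 CPM and was above Mir26b in both libraries, with intervals of 14868 to 15093 CPM in replicate 2 and 10303 to 10570 CPM in replicate 1 that did not overlap those of Mir26b. The gap between these means was within the SD of Mir128-1 and larger than that of Mir26b.

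Mir26a-2 was found at a far lower level. The counts were 266 in replicate 2, at 58.8 CPM (52.0 to 66.3), and 196 in replicate 1, at 86.9 CPM (75.2 to 99.9). Its mean was 72.9 ± 19.8 CPM, and it ranked 225 in replicate 2 and 210 in replicate 1.

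Mir26a-1 differed most between the libraries. In replicate 2 it had 27 counts, 5.97 CPM (3.94 to 8.69), and in replicate 1 it had 648 counts, 287 CPM (266 to 310.2). Its rank was 333 in replicate 2 and 148 in replicate 1. Its mean of 147 ± 199 CPM, with an SD above the mean, describes neither library. None of the miR-26 genes had an antisense count in either library, and the column counted without strand held the same counts as the sense column for each of them, so the choice of column did not change their counts.

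**Figure D2:**
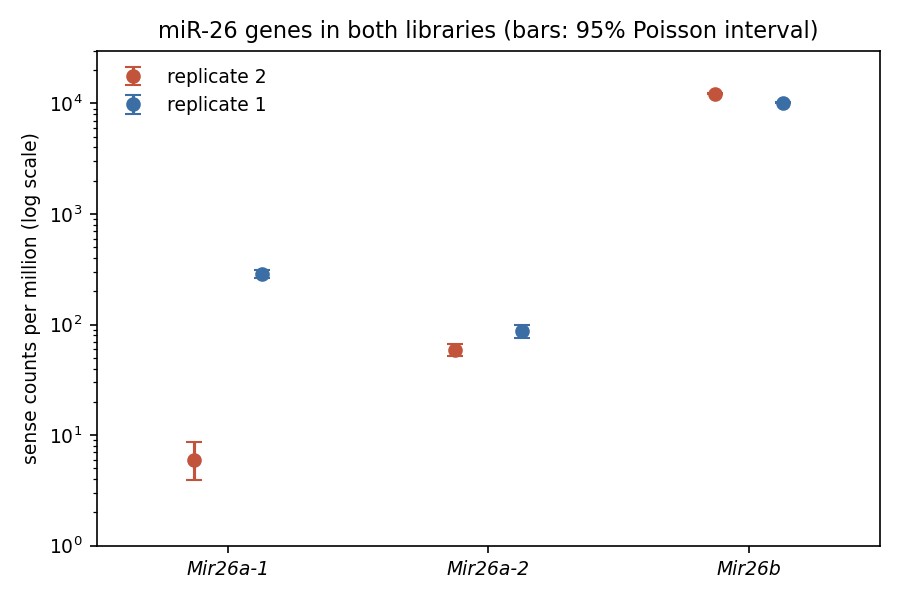
Sense CPM on a log scale for the 3 miR-26 genes, with replicate 2 (left) and replicate 1 (right) for each gene and bars for the exact 95% Poisson interval. Mir26b lies at 12220.2 and 10154 CPM, Mir26a-2 at 58.8 and 86.9 CPM, and Mir26a-1 lies below Mir26a-2 in replicate 2 and above it in replicate 1.

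Among the reads counted at 1 place, Mir26b was the highest of the family in both libraries, and the order of the Mir26a copies differed between them. Since full-length miR-26a-5p reads fit both copies, the ratios of Mir26b over them can be too high, and the lead itself could turn. A share of 0.945% of the multimapping total in replicate 2, or 0.815% in replicate 1, would equal the counts by which Mir26b exceeded both copies together. Mir26b had 207 times the counts of Mir26a-2 in replicate 2 and 117 times in replicate 1, a mean log2 ratio of 7.28 ± 0.59 (SD, n = 2). Over Mir26a-1 its log2 ratio was 10.97 in replicate 2 and 5.14 in replicate 1, a difference of 5.83 between the libraries. Between the copies, Mir26a-1 had fewer counts than Mir26a-2 in replicate 2, with a log2 ratio of -3.28 (-3.93 to -2.73, counting error only). In replicate 1 it had more, with a log2 ratio of 1.72 (1.49 to 1.96). The counting intervals exclude 0 on opposite sides, so the 2 libraries disagree on which copy is higher, and the mean of -0.78 ± 3.54 gives no order. An exact permutation test of 2 values against 2 cannot go below p = 0.33.

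Mir26b held most of the family's counted reads, and these shares too leave out the multimapping reads. The 3 genes together took 1.23% of the counts in replicate 2 and 1.05% in replicate 1, a mean of 1.14% ± 0.124 (SD, n = 2). Mir26b held 99.5% of the family's counts in replicate 2 (99.4 to 99.5, exact Clopper-Pearson interval) and 96.5% in replicate 1 (96.2 to 96.7). For every 1000 counts of Mir26b there were 5.30 counts of both Mir26a copies together in replicate 2 and 36.9 in replicate 1. Together the copies reached 64.8 CPM in replicate 2, against 374 CPM in replicate 1, and Mir26a-1 made up 9.21% of them in replicate 2 (6.16 to 13.1) and 76.8% in replicate 1 (73.8 to 79.6). For each read counted at a Mir26a copy, the multimapping total held 19859 reads in replicate 2 and 3205 in replicate 1.

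Set against all genes, 1 of the 3 miR-26 genes differed by 2-fold or more between the libraries, where 128 of the 495 genes that averaged at least 1 CPM (25.9%) did so, 38 higher (7.68%) and 90 lower (18.2%) in replicate 2. The share among 3 genes says nothing against that background; the sizes are given for each gene. Log2 ratios are of replicate 2 over replicate 1 with 0.5 counts added, and their median over the 495 genes was -0.19. Mir26a-1 had a log2 ratio of -5.56 (-6.20 to -5.03, exact conditional interval for counting error), a 47.3-fold lower level in replicate 2. No other gene of the 495 had a larger absolute ratio. Mir26a-2 had a log2 ratio of -0.56 (-0.83 to -0.29), where the median absolute ratio was 0.43 over the tested genes that averaged 10 to 100 CPM. Mir26b had 0.27 (0.24 to 0.29), which is smaller than the median absolute ratio of 0.41 over the 96 genes that averaged at least 1000 CPM. That comparison holds for CPM scaling only: the ratio of Mir26b was 0.39 with TMM and 0.46 with DESeq2 factors, where the median was not computed. Relative to the median of all tested genes, the 3 ratios were -5.37 for Mir26a-1, -0.37 for Mir26a-2 and 0.46 for Mir26b. With 1 library on each side, these ratios have no replicate check.

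**Figure D3:**
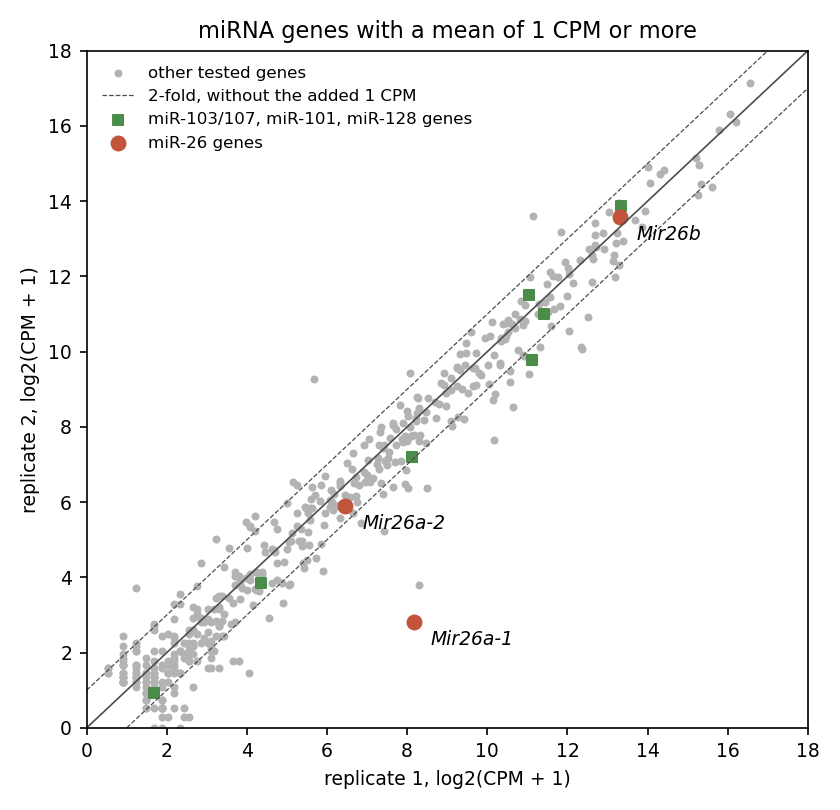
Each point is a miRNA gene that averaged at least 1 CPM, with log2(CPM + 1) of replicate 1 on the horizontal and of replicate 2 on the vertical axis; dashed lines mark 2-fold differences. Mir26b and Mir26a-2 lie between the dashed lines, and Mir26a-1 lies far below them.

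The genes whose levels in both libraries were nearest to each miR-26 gene were found by the distance in log2(CPM + 1) over the 2 libraries, 3 genes each. For Mir26b these were Mir137 (distance 0.03), Mir128-1 (0.30) and Mir22 (0.31). For Mir26a-2 they were Mir190a (0.16), Mir483 (0.23) and Mir9-3 (0.27). Mir26a-1 had only 1 close neighbour, Mir1247 (0.99), which had 12.8 CPM in replicate 2, against 312 CPM in replicate 1. After it came Mir200c (2.53), with 36.3 CPM in replicate 2, against 172 CPM in replicate 1. Mir200a (2.65) had 17.0 CPM in replicate 2 and 59.0 CPM in replicate 1. Because neighbours were picked by their levels in both libraries, genes near Mir26a-1 tend to be lower in replicate 2 through that choice alone. Mir200c and Mir200a, known from epithelia, belong to the choroid plexus and ependyma markers. Of the 10 tested genes of that list, 7 were 2-fold or more lower in replicate 2 and 0 higher. Over all 495 genes, 18.2% were lower and 7.68% higher. The list had a median log2 ratio of -1.21, against -0.19 over all tested genes. Mir200c and Mir200a are themselves among these 7, so the lower list is in part the same observation as these neighbours. The 3 tested genes of the list that were not past 2-fold had log2 ratios of 0.12 (Mir200b), 0.20 (Mir449a) and -0.37 (Mir204). The neuron markers had 1 of 8 tested genes 2-fold or more higher (Mir124a-1, from 13 and 2 counts) and 1 lower (Mir132, log2 ratio -1.09). The erythroid markers had 1 of 3 higher (Mir144, log2 ratio 1.48) and 0 lower, and the other-organ markers 1 of 4 higher (Mir122, 1.54) and 0 lower. The oligodendrocyte markers (3 tested), the microglia and leukocyte markers (6) and the vascular markers (3) had none past 2-fold. The part of these markers, and of the read classes above, in the difference of Mir26a-1 was not tested.

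The change of order between the Mir26a copies was set beside other genes that share a mature sequence, a comparison chosen after the values were seen. Of the genes in the files, 1033 matched the RefSeq table, and 61 pairs of them share an identical mature sequence. In 24 pairs both genes averaged at least 1 CPM, and some genes stand in several pairs. The log2 ratio between the 2 genes of a pair moved by a median of 0.58 between the libraries. For Mir26a-1 and Mir26a-2 it moved by 5.00, the most of the 24 pairs, and the next were Mir129-1 with Mir129-2 at 2.10 and Mir9-1 with Mir9-3 at 2.07. The move of the Mir26a pair restates the log2 ratios of its genes between the libraries, mainly the -5.56 of Mir26a-1, and is not a separate result. The order of the pair turned round for Mir26a and for Mir125b-1 with Mir125b-2, whose log2 ratio was 0.66 in replicate 2 and -0.27 in replicate 1. In the other 22 pairs the same gene was higher in both libraries. Reads that fit both genes of a pair were counted at neither, so these ratios rest on the reads that remain.

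**Figure D4:**
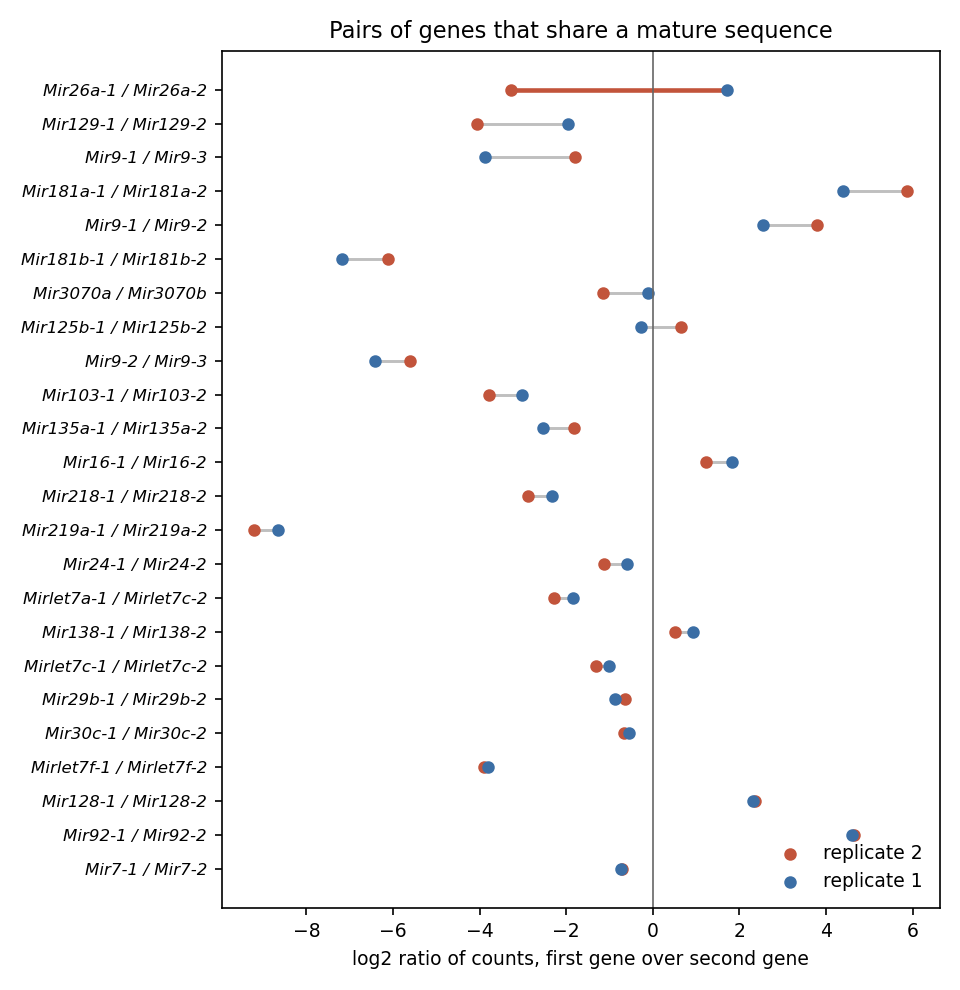
Log2 ratio of counts between the genes of 24 pairs that share a mature sequence (first gene over second), with a point for replicate 2 and one for replicate 1 and a line joining them; pairs are ordered by how far the ratio moved. The Mir26a pair at the top crosses 0, with -3.28 in replicate 2 and 1.72 in replicate 1.

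Counts were also split unevenly between the genes of other families with identical copies or close paralogs. In the family of miR-103 and miR-107, Mir107 held 99.3% of the counts in replicate 2 and 99.2% in replicate 1. The Mir103 copies had few counts, with 13.5 CPM in replicate 2 and 19.5 CPM in replicate 1 for Mir103-2, and 0.885 and 2.22 CPM, from 4 and 5 counts, for Mir103-1. Mir103-1 and Mir103-2 share 27 bases, and each shares 24 bases with Mir107. In the miR-101 family Mir101b led with 879 CPM in replicate 2 and 2216 CPM in replicate 1, Mir101a had 145 and 279 CPM, and Mir101c had no count. The copies of miR-128 share 23 bases: Mir128-1 had 14980.1 CPM in replicate 2, against 10436 CPM in replicate 1, and Mir128-2 had 2914 and 2112 CPM, with a steady log2 ratio of 2.36 and 2.30. Reads that fit more than 1 gene are left out here too. These include full-length reads of miR-103-3p, which both Mir103 copies carry, and of miR-128-3p, which both Mir128 copies carry. The shares and ratios are therefore of reads counted at 1 place, and the levels of the copies can be too low. These values are a description, with no test of a difference between families.

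Because the hosts work with REST, miRNA genes described as having REST binding sites are given beside the family. All 10 listed genes were in the files and 8 averaged at least 1 CPM. They summed to 49769 CPM in replicate 2 and 56190.2 CPM in replicate 1, led by Mir132 and Mir29a. Mir132, which responds to neuronal activity, had 18329 CPM in replicate 2, against 38949 CPM in replicate 1, and Mir212, its neighbour in the same cluster, had 286 and 543 CPM. Mir29a had 31007 and 16557 CPM and Mir29b-1 had 51.1 and 36.8 CPM. Past 2-fold, 2 of the 8 were higher in replicate 2 (Mir9-1, and Mir124a-1 from 13 and 2 counts) and 1 was lower (Mir132), where 7.68% of all 495 genes were higher and 18.2% lower. Their median log2 ratio was 0.42, against -0.19 over all tested genes, and with 8 genes nothing particular to the list is read from these counts. Mir9-1, known from neural progenitors, had 19.9 CPM in replicate 2 and 6.21 CPM in replicate 1, while Mir9-3 had 69.9 and 94.0 CPM and Mir9-2 had 1.33 and 0.887 CPM.

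The host transcripts were searched for the 7-letter match to the 5p seed, TACTTGA, and for the 8-letter match with a further A, TACTTGAA, which contains it. The search covered the transcript strand of the longest annotated 3′ UTR of each host (GENCODE M21). The 3489 bases of Ctdsp2 held 1 match of 7 letters and 0 of 8. It is shown with its flanks, match in capitals, because ctdsp2 is the described target in zebrafish.
Ctdsp2, chr10:126997556-126997574, plus strand: gtgttgctctTACTTGAtt
The 3349 bases of Ctdspl and the 1701 bases of Ctdsp1 held 0 matches of either kind. Among 944 genes whose 3′ UTR is within 10% of the length of that of Ctdsp2, 22.9% held the 7-letter match. The shares were 23.0% of 997 such genes for Ctdspl and 11.1% of 1430 for Ctdsp1, so a match of this kind is common. A match describes the letters only, and neither messenger RNA nor protein was measured.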

How the data were processed

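Per the file headers and README files, the deposited values are raw counts per GENCODE M21 miRNA gene on mm10, 1 file per library, not pooled. The aligner and counter are not stated in the sources used here. Gene IDs were named from GENCODE M21 (2202 of 2202 matched). The 4 rows of read totals did not enter library sums. Multimapping reads are such a total, which can lower genes with identical copies, and the reference is the B6 genome, so CAST alleles could lose reads too.

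Sense counts were scaled to CPM, and log2 ratios used 0.5 added counts. A gene was compared between libraries at a mean of 1 CPM or more and counted at 2-fold or more. No edgeR or DESeq2 test was run, since each side has 1 library; edgeR 4.0.16 (TMM) and DESeq2 1.42.0 (size factors) gave alternative scalings only. Intervals came from SciPy 1.17.1. The fold calculation was tested on simulated data. Windows over whole hairpins were compared on both strands. Windows inside the mature arms and the longest shared stretches were compared on the hairpin strand only.

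Named genes were the miR-26 genes, 3 nearest genes each, the miR-103, miR-107, miR-101 and miR-128 genes, the REST-linked list, and of each marker list the 2 highest genes and markers at 0. Genes of copy pairs were named after their values were seen. Members and lists were chosen with earlier results of these data known.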

Additional observations from a re-analysis of the deposited data

How the results depend on the processing

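Of 48 alternative values, 42 kept their direction, their side of 2-fold or their place within the spread of the libraries. Part of this tally was fixed in advance. A level, share or within-library ratio taken without replicate 1 or 2 lies within the SD of both libraries by construction, so only a reversal of sign could show there. The within-library ratios could not change in the column without strand, which held the same counts. With all reads as the denominator, the mean of Mir26a-2 was 24.0 (CPM of all reads), that of Mir26b 3803 and the family's share 0.387%, because the denominator is larger. The log2 ratio of Mir26a-1 over Mir26a-2, -0.78 as a mean, lay between -3.28 (without replicate 1) and 1.72 (without replicate 2), a reversal. Without replicate 1 or 2, Mir26a-1 lay at 5.97 or 287 CPM. Between the libraries, 288 of 734 genes were past 2-fold with no filter beyond 1 count and 53 of 310 at a mean of 10 CPM or more, against 128 of 495, since more or fewer genes enter. TMM factors added 0.12 and DESeq2 size factors 0.19 to every log2 ratio, with 43 higher and 73 lower genes, and 44 and 68. Under every scaling and column, the log2 ratio was -5.56 to -5.26 for Mir26a-1, -0.56 to -0.26 for Mir26a-2 and 0.27 to 0.57 for Mir26b. No paired test of a condition was possible because there is 1 group. The ratios between miR-26 genes were taken within each library, without a test. Counting error alone put the 27 counts of Mir26a-1 in replicate 2 between 3.94 and 8.69 CPM, and the reads with several places were not assigned.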
